A study of Homo sapiens with 6 samples.

Results

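The genes described here encode the subunits of the mitochondrial respiratory chain and ATP synthase that are made from nuclear DNA, read in C4-2 cells of a control line and of a line edited at CDK12. They were taken by symbol among protein-coding genes: NDUFA, NDUFB, NDUFC, NDUFS and NDUFV (assembly factors named NDUFAF left out), SDHA to SDHD, UQCR, CYC1, COX4 to COX8, and ATP5F1, ATP5M and ATP5P. Of 62696 gene entries, 90 met this rule: 40 in complex I, 4 in complex II, 10 in complex III, 17 in complex IV and 19 in complex V. A further 174 gene entries with such symbols are pseudogenes and were not members.

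C4-2 cells are an established human line of castration-resistant prostate cancer, kept in RPMI medium with fetal bovine serum and given no treatment. Bulk RNA was sequenced from 3 libraries of the control line (VEC1 to VEC3, genotype labelled WT) and 3 libraries of the line made by CRISPR-Cas9 editing of CDK12 (CDK12KO1 to CDK12KO3, genotype labelled CDK12 knockout), while the series title speaks of a knockdown. CDK12 is a kinase of RNA polymerase II, and the series asked what its loss does to castration-resistant prostate cancer cells. The labels do not say whether the replicates were separate cultures or whether the edited cells were 1 clone or several, so the p-values reflect the scatter of these libraries, possibly only technical scatter, and other differences between the control and edited lines cannot be told apart from the edit.

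The respiratory chain passes electrons from NADH (complex I) and succinate (complex II) through complex III to oxygen at complex IV, and complex V uses the proton gradient this makes to form ATP. Complexes I, III, IV and V are built from subunits of both genomes, with the mitochondrial DNA encoding a few of the innermost ones, while complex II is entirely nuclear. Nuclear subunit genes are mostly short and are known to be read by transcription factors such as NRF1, the ETS factor GABPA and YY1.

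Between 16617644 and 21590817 reads per library were counted in genes. Of the luminal prostate markers, KLK3 was present in every library at 4307–5847 CPM (counts scaled to a common library size). CD3E, PECAM1 and TP63 had no reads in any library, PTPRC and KRT5 stayed at or below 0.112 CPM and COL1A2 at or below 1.13 CPM, but COL1A1, a fibroblast marker, was at 19.5–28.4 CPM. CDK12 itself was at 60.2, 48 and 57.1 CPM in VEC1 to VEC3 and at 60.8, 56.9 and 56.5 CPM in CDK12KO1 to CDK12KO3, so its RNA did not separate the groups, and a count over the whole gene does not check an edit within it. Library CDK12KO2 stood apart: its scaling factor was 0.737 against 1.04–1.10 in the other 5, its reads shared between overlapping genes were 14.4% against 11.1–12.2%, and the chi-square per degree of freedom between it and the other knockout libraries was 152–168 against 3.27 between CDK12KO1 and CDK12KO3. The counts and medians below are therefore given with all 6 libraries and without it, and single genes with the CPM of all 6 and the fold change without it unless stated. Fewer cells of a kind and less RNA per cell cannot be told apart in bulk RNA.

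Members that move together raise the question of what their promoters share. Of the 90 members, 72 had a promoter entry in RefSeq (GRCh38.p14, 250 bases before to 50 after the start). The letters GCGC, then any base, then TGCGC, the core of the NRF1 motif, were in the promoters of 17 of these (23.6%), against 9.66% of 15842 protein-coding genes. AAGATGGC, a YY1 motif, was in 12 (16.7%, against 4.66%), and CCGGAAG, an ETS motif, in 21 (29.2%, against 16.5%). Both strands were searched, a match is a description and not a binding site, and a gene counts once if any of its entries holds the letters. By complex, the NRF1 letters were in 6 of 35 promoters of complex I, 2 of 3 of complex II, 4 of 7 of complex III, 1 of 14 of complex IV and 4 of 13 of complex V. The 1 in complex IV was COX8C, which had 0 reads in all 6 libraries. For ETS the counts were 5, 2, 3, 5 and 6, and for YY1 they were 7, 1, 1, 0 and 3, in the same order. The stretches below are shown because they carry these letters in capitals in front of genes whose counts changed in the comparison given later, 6 that rose and NDUFS1, which fell. Each is cut from the part before the RefSeq start and written 5′ to 3′ on the gene's strand. Some bases lie in exons of the same gene in GENCODE 29: 28 in UQCR11, 24 in NDUFS1, 7 in COX5B and all 27 in COX6B1.
NDUFB4 (chr3:120596162-120596297, plus strand): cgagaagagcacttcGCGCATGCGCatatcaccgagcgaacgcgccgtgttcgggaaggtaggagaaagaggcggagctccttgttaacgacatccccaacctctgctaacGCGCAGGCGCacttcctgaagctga
NDUFB7 (chr19:14572069-14572105, minus strand): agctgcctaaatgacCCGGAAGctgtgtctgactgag
NDUFS1 (chr2:206159580-206159616, minus strand): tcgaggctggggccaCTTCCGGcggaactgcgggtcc
UQCR11 (chr19:1605463-1605594, minus strand): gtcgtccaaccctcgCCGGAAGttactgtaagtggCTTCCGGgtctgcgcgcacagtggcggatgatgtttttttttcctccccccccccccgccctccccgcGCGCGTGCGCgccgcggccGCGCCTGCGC
COX5B (chr2:97646010-97646046, plus strand): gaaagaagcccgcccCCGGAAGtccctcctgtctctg
COX6B1 (chr19:35648296-35648322, plus strand): ccccacctctctcagCTTCCGGctggt
ATP5MK (chr10:103396614-103396653, minus strand): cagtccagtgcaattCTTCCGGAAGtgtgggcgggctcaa
NDUFB4 carries the NRF1 letters at 2 places, the first, 159 bases before the start, reading on both strands and the other on the opposite strand. UQCR11 carries them as written at 2 places after 1 ETS match on each strand. NDUFB7 and COX5B hold CCGGAAG as written, 24 and 37 bases before the start, and NDUFS1 and COX6B1 hold it on the other strand, 157 and 12 bases before. In ATP5MK the capitals are 2 overlapping ETS matches, 1 on each strand. For the 40 tested members with any of the 3 motifs, the median log2 difference without CDK12KO2 was 0.30 and the 28 tested members with none also had 0.30. Taken by motif, the medians were 0.41 for the 21 tested members with the ETS letters, 0.30 for 16 with the NRF1 letters and 0.28 for 12 with the YY1 letters, and no difference between them was tested.

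With all 6 libraries, most subunit genes had higher counts in the knockout libraries, but none passed the test. Of 83 members with enough reads to test, 78 had a fold change above 0, and the median log2 fold change (CDK12KO against VEC) was 0.83, or 1.78-fold, where all 15783 tested genes had 0.00. By complex the median was 0.72 in complex I (39 tested), 0.30 in complex II (4), 0.83 in complex III (10), 1.00 in complex IV (13) and 1.17 in complex V (17). edgeR's quasi-likelihood test with Benjamini-Hochberg adjustment called 0 of 83 higher and 0 lower at 0.05. Over all genes it called 0.418% higher and 0.177% lower. At an unadjusted p under 0.05 there were 51 members, where 21.7% of all genes were. DESeq2 called 12 members higher (among them UQCRH, COX5B, COX7A2, NDUFAB1 and ATP5MC1) and 3.07% of 16179 genes. For members, limma-voom called 0, and edgeR without the filter on low counts called NDUFAB1 alone. In 64 members every knockout library was above every VEC library, against 20.4% of all genes, and in 2 members, NDUFS1 and NDUFV2, every knockout library was below, against 19.0% of all genes. The biological coefficient of variation over genes was 24.2% in this fit and 8.0% without CDK12KO2.

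Library CDK12KO2 set the size of these medians. The median member was 0.27 above the VEC mean in CDK12KO1 and 0.34 above it in CDK12KO3 on the log2 CPM scale, but 1.43 above in CDK12KO2. In the VEC libraries the same medians were −0.06, 0.02 and 0.01. The order of the complexes also differed between libraries. In CDK12KO2 complex V stood highest (2.02), then IV (1.71), I (1.33), III (1.31) and II (0.34). In CDK12KO1 and CDK12KO3 complex IV stood highest (0.42 and 0.49), then III (0.34 and 0.46) and V (0.30 and 0.38), with I (0.23 and 0.29) and II (0.24 and 0.24) lowest. Complex II had the smallest gap between CDK12KO2 and the other knockout libraries.

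**Figure D1:**
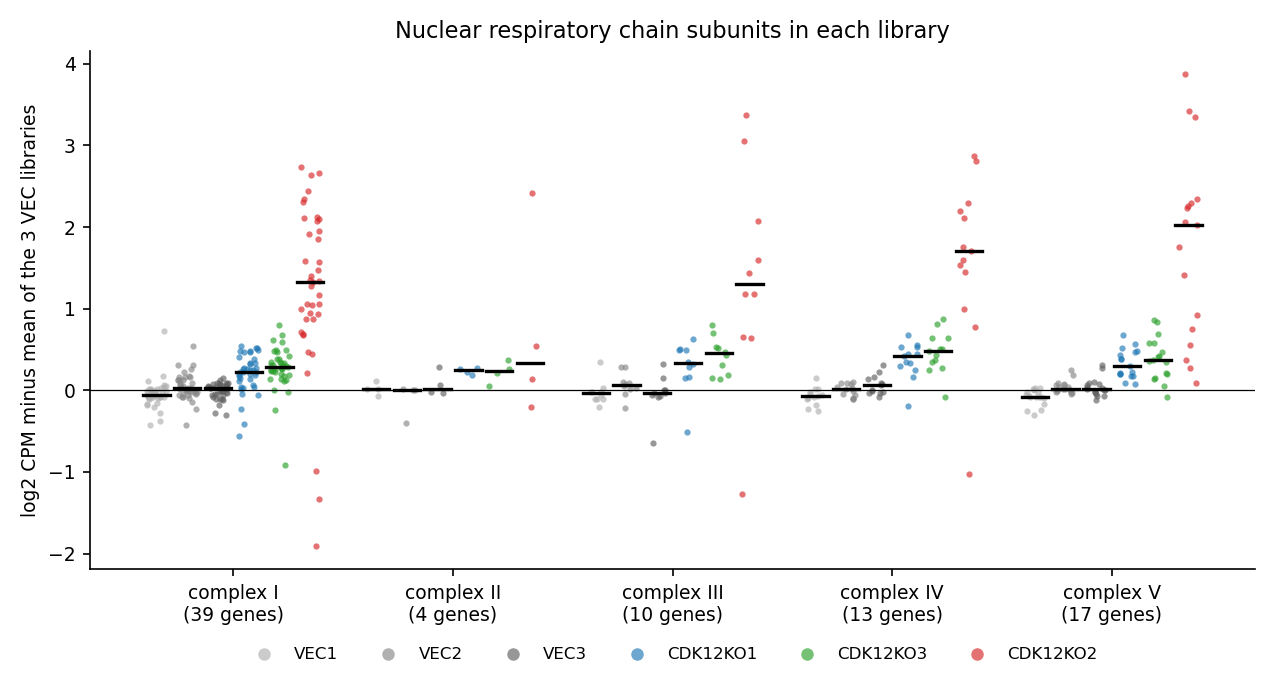
Each point is 1 tested member in 1 library, as log2 CPM minus the mean of the 3 VEC libraries, grouped by complex, with black bars at the median. Medians of CDK12KO1 and CDK12KO3 lie between 0.23 and 0.49 in all 5 complexes, while those of CDK12KO2 run from 0.34 in complex II to 2.02 in complex V.

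The members' summed share of all reads in genes was also higher in the knockout libraries. It was 1.41%, 1.42% and 1.44% in VEC1 to VEC3 (1.42% ± 0.0159, SD, n = 3), 1.68% in CDK12KO1, 2.51% in CDK12KO2 and 1.72% in CDK12KO3. Complex V held the largest part of it, 0.537% ± 0.00796 in VEC, followed by complex I with 0.429% ± 0.00835, complex III with 0.216% ± 0.00615, complex IV with 0.211% ± 0.00880 and complex II with 0.0305% ± 0.000793. Complex II alone was lower in CDK12KO2 (0.0247%) than in the VEC libraries, although its median log2 CPM there was 0.34 above the VEC mean. The CPM use the scaling factors (0.737 for CDK12KO2) and the shares do not, so the direction for complex II in this library depends on the measure.

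Without CDK12KO2, 49 of 83 tested members rose and 1, NDUFS1, fell (edgeR's quasi-likelihood test, Benjamini-Hochberg adjusted p under 0.05), where 10.2% of all 16339 tested genes rose and 8.88% fell. The changes were small: the median log2 fold change was 0.30 (1.23-fold) against −0.01 for all genes. Complex IV had 11 of 13 members higher (median 0.46, 1.37-fold), complex III 6 of 10 (0.39, 1.31-fold), complex V 11 of 17 (0.37, 1.29-fold), complex I 18 of 39 higher and 1 lower (0.25, 1.19-fold) and complex II 3 of 4 (0.22, 1.16-fold). Both remaining knockout libraries were above all VEC libraries in 65 members, against 24.0% of all genes, and below them in 2, NDUFS1 and NDUFV2, against 23.1%. With CDK12KO3 also left out, only 1 knockout library remained, and the median was 0.27 for the members against −0.02 for all genes. A correction of every library for transcript length and GC content left 42 members higher and 0 lower (9.33% and 9.85% of all genes), of which 39 are also among the 50 above. No difference between complexes was tested.

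**Figure D2:**
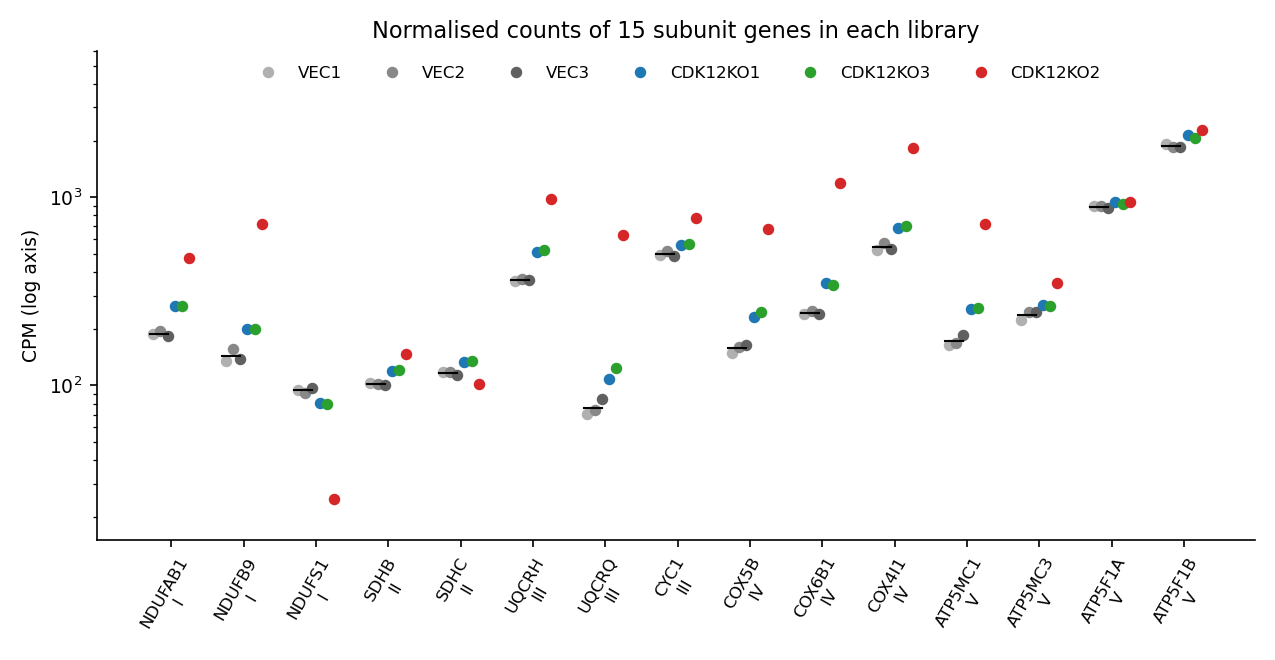
CPM of 15 members in each library on a log axis, with complex numbers under the symbols and a black bar at the VEC mean. CDK12KO1 and CDK12KO3 lie above the 3 VEC libraries in all but NDUFS1, where they lie below, and CDK12KO2 lies above the VEC libraries in all but NDUFS1 and SDHC.

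Complex I takes electrons from NADH through a core of redox subunits wrapped in many accessory ones. Its 4 members with the smallest p without CDK12KO2 were all accessory by the rule used here. NDUFA4, which RefSeq names COXFA4 and which is known to sit in complex IV, was at 131, 131 and 134 CPM in VEC1 to VEC3 and at 189, 367 and 186 CPM in CDK12KO1 to CDK12KO3. Without CDK12KO2 its log2 fold change was 0.51 ± 0.06 (SE, edgeR adjusted p = 1.63e-05). NDUFAB1 (chr16:23581002-23596356, minus strand), the mitochondrial acyl carrier protein, stood at 187, 194 and 182 CPM against 265, 476 and 264 CPM (log2 0.49 ± 0.06, edgeR adjusted p = 2.15e-05). In both genes CDK12KO1 and CDK12KO3 nearly coincide above the VEC range and CDK12KO2 is far higher. NDUFB9, a membrane arm accessory subunit, stood at 134, 155 and 138 CPM against 199, 725 and 199 CPM (log2 0.48 ± 0.07, edgeR adjusted p = 8.51e-05). NDUFA1, encoded on the X chromosome, stood at 77.7, 70.9 and 87.1 CPM against 112, 337 and 121 CPM (log2 0.56 ± 0.08, edgeR adjusted p = 8.56e-05). The groups overlap in neither.

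The highest subunits of complex I per base of principal transcript were NDUFB4 and NDUFB10, both in the membrane arm, whereas with the union of exons as length NDUFS5 (1419) and NDUFB7 (1114) stood above NDUFB10 (1035) and NDUFB4 (621). NDUFB4 was at 361, 358 and 374 CPM in VEC1 to VEC3 and at 438, 705 and 452 CPM in CDK12KO1 to CDK12KO3, a log2 fold change of 0.28 ± 0.06 without CDK12KO2 (edgeR adjusted p = 0.00297). NDUFB10 was at 338, 377 and 321 CPM against 390.0, 1025 and 396 CPM, and its difference of 0.18 ± 0.07 did not pass (edgeR adjusted p = 0.0722). VEC2 lies near the knockout libraries in this gene.

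NDUFS1 (chr2:206114817-206159603, minus strand, GRCh38), the largest core subunit and the holder of several iron-sulfur clusters, was the only member that fell. It was at 94.2, 90.6 and 97.2 CPM in VEC1 to VEC3 and at 80.2, 25.0 and 79.6 CPM in CDK12KO1 to CDK12KO3. Every knockout library lay below every VEC library, with CDK12KO2 lowest. Its log2 fold change was −0.24 ± 0.07 without CDK12KO2 (edgeR adjusted p = 0.0234) and −0.61 ± 0.40 with all 6 libraries (edgeR adjusted p = 0.353). It is also among the members with the longest principal transcript, 11819 bases in GENCODE 29. With the length and GC correction its log2 fold change was −0.07 (edgeR adjusted p = 0.519), and leaving out VEC1, VEC3, CDK12KO1 or CDK12KO3 also ended the call (edgeR adjusted p from 0.0724 to 0.217). The 7 core subunits, which carry the redox centres or support them, had a median of 0.17, with 3 higher and 1 lower, and the 32 tested accessory subunits had 0.26, with 15 higher. Some values on both sides rest on a small part of the gene's reads or on few reads. In the core, NDUFS7 had 0.07 here but 0.36 with both stranded columns added, as described below. NDUFV2, also in the core, had 165 reads over the 6 libraries. Among accessory subunits, NDUFA2 had 0.24 here and 0.47 with both columns added. The difference between core and accessory medians was not tested. With all 6 libraries these medians were 0.41 and 0.78, with none called by edgeR and 4 and 18 at an unadjusted p under 0.05.

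Complex II oxidises succinate and also belongs to the tricarboxylic acid cycle. SDHB, its iron-sulfur subunit, was at 103, 102 and 100.2 CPM in VEC1 to VEC3 and at 119, 147 and 121 CPM in CDK12KO1 to CDK12KO3 (log2 0.24 ± 0.07 without CDK12KO2, edgeR adjusted p = 0.0182). SDHD, a membrane anchor, was at 61.4, 64.8 and 67.5 CPM against 77.9, 71.0 and 83.3 CPM (log2 0.31 ± 0.08, edgeR adjusted p = 0.00662). SDHC, the other anchor, was at 118, 118 and 114 CPM against 133, 101 and 135 CPM (log2 0.20 ± 0.07, edgeR adjusted p = 0.0412). SDHB and SDHD are higher in all 3 knockout libraries, but SDHC is higher only in CDK12KO1 and CDK12KO3 and is lower in CDK12KO2 than in any VEC library. The calls of this complex were not firm: SDHB lost its call with the length and GC correction (log2 0.16, edgeR adjusted p = 0.0726) and without CDK12KO1 or CDK12KO3 (adjusted p = 0.145 and 0.204). SDHC lost its call in 6 of 14 alternatives and SDHD without CDK12KO3 (edgeR adjusted p = 0.157). SDHA, the flavoprotein subunit, was counted at only 3.02, 2.07 and 3.41 CPM in VEC1 to VEC3 and 3.35, 15.2 and 2.90 CPM in CDK12KO1 to CDK12KO3 (log2 0.13 ± 0.27 without CDK12KO2, edgeR adjusted p = 0.776). Over the 6 libraries it had 527 reads and its named pseudogenes had 2915, so its level cannot be read from these counts.

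Complex III passes electrons from ubiquinol to cytochrome c. UQCRH (chr1:46303631-46316776, plus strand), the hinge protein, was at 359.6, 369 and 365 CPM in VEC1 to VEC3 and at 512, 984 and 524 CPM in CDK12KO1 to CDK12KO3 (log2 0.50 ± 0.06 without CDK12KO2, edgeR adjusted p = 1.14e-05). UQCRQ was at 70.4, 73.9 and 84.2 CPM against 108, 630.5 and 124 CPM (log2 0.60 ± 0.08, edgeR adjusted p = 5.89e-05). UQCRB was at 135, 157 and 147 CPM against 183, 614 and 198 CPM (log2 0.37 ± 0.07, edgeR adjusted p = 0.00103). These accessory subunits share 1 pattern: CDK12KO1 and CDK12KO3 above the VEC range, and CDK12KO2 well above those. UQCR10 was at 14.9, 13.8 and 20.1 CPM against 24.7, 167 and 27.9 CPM (log2 0.69 ± 0.14, edgeR adjusted p = 0.00158). CYC1, the catalytic cytochrome c1, was at 493, 515 and 485 CPM against 559, 774 and 565 CPM, and its difference of 0.17 ± 0.06 did not pass (edgeR adjusted p = 0.0582), although its groups do not overlap. UQCRC2, a core subunit, varied within both groups (268, 257 and 134 CPM against 147, 87.1 and 232 CPM). It falls outside the rule for named genes and was singled out after its values were seen. The 4 core subunits (UQCRC1, UQCRC2, CYC1 and UQCRFS1) had a median of 0.16 with 1 higher, and the 6 accessory ones had 0.50 with 5 higher. With all 6 libraries the medians were 0.34 and 1.05, with none called by edgeR and 1 and 6 at an unadjusted p under 0.05.

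Complex IV, cytochrome c oxidase, had the highest share of members called. COX5B (chr2:97646040-97648383, plus strand) was at 149, 159.8 and 165 CPM in VEC1 to VEC3 and at 232, 680.2 and 245 CPM in CDK12KO1 to CDK12KO3 (log2 0.59 ± 0.07 without CDK12KO2, edgeR adjusted p = 4.95e-06). COX6B1, which faces the intermembrane space, was at 240.2, 249 and 239 CPM against 351, 1189.8 and 340.1 CPM (log2 0.50 ± 0.06, edgeR adjusted p = 1.22e-05). In these genes CDK12KO1 and CDK12KO3 lie close to each other and clear of the VEC range. COX7A2 was at 123, 113 and 129 CPM against 175, 369 and 172 CPM (log2 0.51 ± 0.07, edgeR adjusted p = 4.72e-05). COX7C was at 303, 295 and 356 CPM against 432, 1035 and 449 CPM (log2 0.46 ± 0.07, edgeR adjusted p = 0.00021). COX4I1, the regulatory subunit IV, was at 527, 571 and 528 CPM against 689.8, 1826 and 702 CPM (log2 0.36 ± 0.06, edgeR adjusted p = 0.00055). None of the 3 overlaps between groups. COX4I1 was the highest of the complex per base of principal transcript, but with the union of exons it was at 363, below COX6B1 (834), COX5A (605) and COX7C (515).

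Complex V makes ATP, with a catalytic F1 head (ATP5F1A to ATP5F1E) on a membrane part that holds the c-ring, made by 3 genes with the same mature product, ATP5MC1, ATP5MC2 and ATP5MC3. ATP5MC1 (chr17:48892765-48895871, plus strand) was at 164, 169 and 186 CPM in VEC1 to VEC3 and at 256, 721 and 257 CPM in CDK12KO1 to CDK12KO3 (log2 0.57 ± 0.07 without CDK12KO2, edgeR adjusted p = 1.02e-05). ATP5MC2 was at 223, 238 and 232 CPM against 322, 779 and 294 CPM (log2 0.41 ± 0.06, edgeR adjusted p = 0.000178). ATP5MC3 was at 224, 245 and 244 CPM against 268, 349 and 265 CPM, a difference of 0.16 ± 0.06 that did not pass (edgeR adjusted p = 0.0903). So the share of ATP5MC3 in the summed per-length level of the 3 genes was lower in every knockout library: 31.7%, 32.6% and 31.8% in VEC1 to VEC3 and 27.0%, 15.6% and 27.6% in CDK12KO1 to CDK12KO3. The share of ATP5MC1 went the other way, from 32.6%, 31.6% and 34.0% to 36.3%, 45.2% and 37.8%.

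In the catalytic head the large subunits did not pass the test. ATP5F1A was at 901, 895 and 876 CPM in VEC1 to VEC3 and 943, 945 and 921 CPM in CDK12KO1 to CDK12KO3 (log2 0.06 ± 0.06 without CDK12KO2, edgeR adjusted p = 0.551), and ATP5F1B, the catalytic beta subunit, was at 1919, 1855 and 1856 CPM against 2151, 2275 and 2068 CPM (log2 0.16 ± 0.06, edgeR adjusted p = 0.0835). ATP5F1A also falls outside the rule for named genes and is given as the partner of ATP5F1B. ATP5F1D, the small delta subunit of the stalk, was at 435, 524 and 425 CPM against 597, 2189.8 and 596 CPM (log2 0.37 ± 0.08, edgeR adjusted p = 0.0023). With the length and GC correction ATP5F1D had 0.12 and lost its call (edgeR adjusted p = 0.162). Neither of the large subunits has CDK12KO2 far from the other knockout libraries, whereas ATP5F1D does. Of the small membrane subunits, ATP5MJ was at 106, 113 and 117 CPM against 161, 528 and 167 CPM (log2 0.55 ± 0.07, edgeR adjusted p = 1.52e-05). ATP5MK was at 113, 123 and 109.7 CPM against 151, 307 and 160.2 CPM (log2 0.43 ± 0.07, edgeR adjusted p = 0.000258). The 5 genes of the F1 part had a median of 0.19 with 3 higher, and the other 12 tested had 0.42 with 8 higher. With all 6 libraries the medians were 0.41 and 1.21, with none called by edgeR and 2 and 8 at an unadjusted p under 0.05.

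Levels of different genes were set side by side only per length, as reads per base of the principal transcript, scaled to the same total over genes in each library (TPM-like, mean ± SD of the 3 VEC libraries). ATP5F1B was highest of all members at 1863 ± 105, followed by COX4I1 at 1394 ± 7.80, ATP5F1D at 1191 ± 83.1 and UQCRH at 1101 ± 41.6. The last pair differ by about the size of their SDs. NDUFB4 was at 991 ± 64.4, NDUFB10 at 891 ± 34.6, CYC1 at 732 ± 12.0, SDHB at 161 ± 7.48 and SDHD at 81.8 ± 5.60. These levels depend on the annotated transcript. With the union of all exons in place of the principal transcript, ATP5F1B came to 2602, UQCRH to 833, NDUFB4 to 621, COX4I1 to 363 and SDHB to 133.

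Paralogs known from other tissues were rare or absent in these cells. COX4I2, COX6A2 and COX8C had 0 reads in all 6 libraries, and COX6B2 had 1, 3 and 3 reads in VEC1 to VEC3 and 10, 25 and 3 in CDK12KO1 to CDK12KO3. The read-through NDUFC2-KCTD14 also had 0 reads, but 100% of its exon bases are shared with NDUFC2 or KCTD14 on the same strand. Reads that fall in more than 1 gene are not counted, so this 0 does not show its level. The muscle form COX7A1 was at 2.11 ± 0.219 per length in VEC where COX7A2 was at 288 ± 31.9 and COX7A2L, which takes part in joining complexes III and IV, at 104 ± 3.82. NDUFA4L2 was at 8.21 ± 0.904 beside NDUFA4 at 113 ± 5.77, UQCRHL at 5.05 ± 0.694 beside UQCRH, and COX7B2 at 6.53 ± 0.773 beside COX7B at 552 ± 27.2. COX7A2L rose (log2 0.30 ± 0.08 without CDK12KO2, edgeR adjusted p = 0.0103), as did COX7B (0.39 ± 0.06, edgeR adjusted p = 0.000296). NDUFA4L2 (0.39 ± 0.19, edgeR adjusted p = 0.156), UQCRHL (0.50 ± 0.18, edgeR adjusted p = 0.0582) and COX7B2 (0.76 ± 0.27, edgeR adjusted p = 0.0514) did not pass. COX7A1 had −0.16 ± 0.46 (edgeR adjusted p = 0.845). UQCRHL is a near copy of UQCRH, so reads of one may be counted for the other. COX6A1 (0.65 ± 0.16, edgeR adjusted p = 0.00601) and COX8A (0.46 ± 0.14, edgeR adjusted p = 0.0239) rose from 37.6 ± 6.56 and 94.0 ± 21.4 per length, and part of the exons of both is shared with another gene on the same strand. COX8A overlaps between groups without CDK12KO2, and its call was lost with the length and GC correction (0.37, edgeR adjusted p = 0.0617), with total counts as the scale (adjusted p = 0.0562) and without VEC1, VEC2 or CDK12KO3 (adjusted p = 0.102, 0.203 and 0.366). COX6A1 lost its call without CDK12KO3 (0.41, edgeR adjusted p = 0.233), as did COX7A2L (adjusted p = 0.0788), which also lost it without CDK12KO1 (adjusted p = 0.165).

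The members are short, and other genes under 2000 bases also had medians above 0 in the knockout libraries. Without CDK12KO2 those under 600 bases had only 0.04. The tested members had a median principal transcript of 916 bases against 2493.5 over all tested genes. Across the 83 members, Spearman's rho between length and log2 fold change was −0.49 with all 6 libraries and −0.45 without CDK12KO2. Across other genes it was −0.34 (15167 genes) and −0.21 (15688 genes), and genes share their libraries, so these are descriptions. Within each range of length the median of the members was above that of the other genes, which was not tested. Without CDK12KO2, members under 600 bases had a median of 0.42 (16 genes) against 0.04, those from 600 up to 1000 bases 0.36 (31) against 0.17, those from 1000 up to 2000 bases 0.25 (21) against 0.11, those from 2000 up to 4000 bases 0.18 (9) against −0.01, and those of 4000 bases or more 0.15 (6) against −0.13. In CDK12KO2 the medians of the members were 2.09, 1.71, 1.00, 0.67 and 0.80 in the same ranges, from shortest to longest. Those of the other genes were 0.52, 0.77, 0.42, −0.08 and −0.45. The part of length in the members' fold changes was not tested beyond the length and GC correction given above. SDHC, NDUFS1, NDUFA9 and UQCRB have principal transcripts of 13566, 11819, 8363 and 5575 bases in GENCODE 29, longer than their usual messages. All of these are among the 6 members in the range of 4000 bases or more, so its median may not be that of long messages. The length and GC correction used the same lengths, also for NDUFS1.

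**Figure D3:**
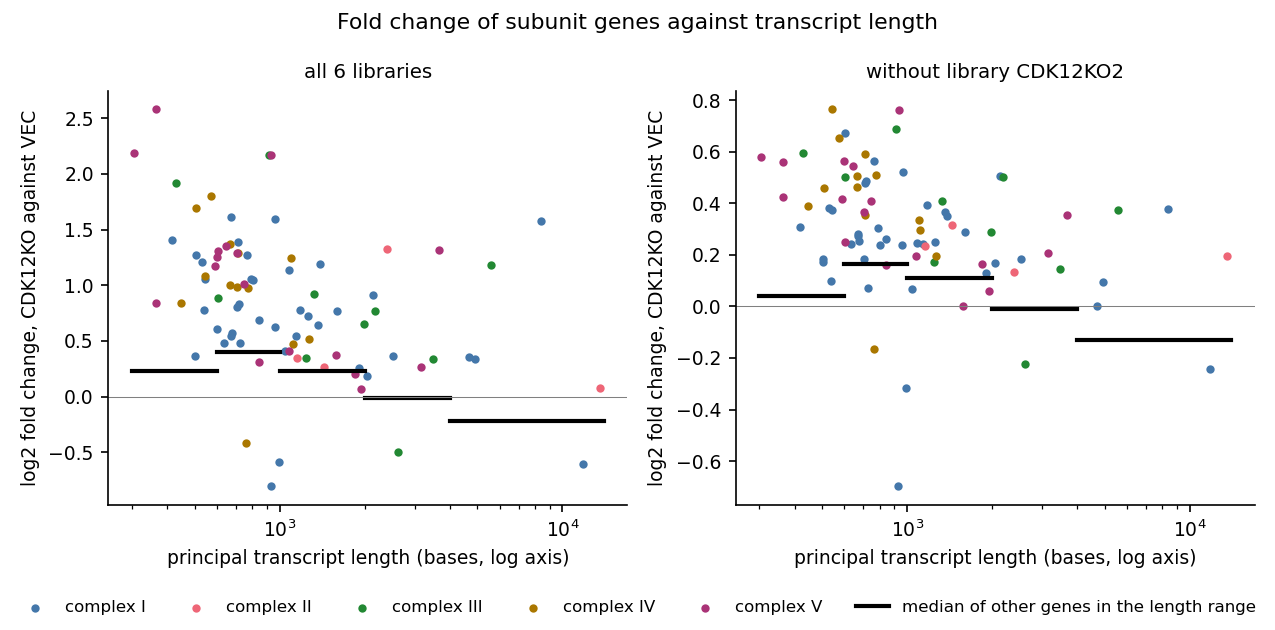
Log2 fold change of each tested member against the length of its principal transcript (log axis), with all 6 libraries on the left and without CDK12KO2 on the right, coloured by complex. Black lines give the median of all other genes in 5 ranges of length, and most members lie above the line of their range.

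Many members share exons with a neighbour, and the deposited counts leave out reads that fall in more than 1 gene. The sums of the 2 stranded columns are nearly equal in each library, so the libraries do not mark strand, and adding both stranded columns keeps reads that only overlap a gene on the other strand. That sum was over 1.5 times the unstranded count in 11 of the 81 members with at least 50 VEC reads, and over 4 times in 4 of them. In the 3 VEC libraries together ATP5ME, which shares 61.6% of its exon bases with MYL5 on the other strand, had 108 reads unstranded and 4802 in the sum. NDUFS7 had 270 and 9264, NDUFA2 510 and 4180, and UQCR10 902 and 8011. NDUFS7 shares 49.1% of its exon bases with genes on the other strand and NDUFA2 13.0%. UQCR10 shares 0% on either strand in the annotation used for overlaps, so exon sharing was not shown for its added reads. COX6C, with 4956 and 9846 reads, also shares 0% on either strand. SDHA, NDUFV2 and NDUFB8 gained almost nothing. NDUFB8 shares 33.8% of its exon bases with a gene on the same strand and NDUFV2 28.4%, and the named pseudogene of NDUFV2 held 1020 reads over the 6 libraries where NDUFV2 had 165. A sum of both columns can also add reads of the neighbour that lie in shared bases.

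Counted this way, a choice made after the data were seen, 54 of 84 tested members rose and 1 fell without CDK12KO2, where 10.8% of all genes rose and 9.79% fell. All 50 members called before were among them, and NDUFA2, NDUFB2, NDUFS7, ATP5ME and ATP5PD were added. NDUFS7, a core subunit of complex I, went from a log2 fold change of 0.07 ± 0.22 to 0.36 ± 0.07 (edgeR adjusted p = 0.000301), and ATP5ME, the e subunit of ATP synthase, from 0.56 ± 0.30 to 0.51 ± 0.09 (edgeR adjusted p = 0.000825). UQCR10 had 0.41 ± 0.06 in the sum against 0.69 unstranded, and UQCRQ 0.35 ± 0.06 against 0.60, both called either way. In CDK12KO2 the sum was 2.99 times the unstranded count for UQCR10 where it was 8.88 times in VEC, so the part of its reads outside the unstranded count differed between libraries. With all 6 libraries the log2 fold change of UQCR10 was 2.17 unstranded and 1.01 in the sum, and no member was called.

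**Figure D4:**
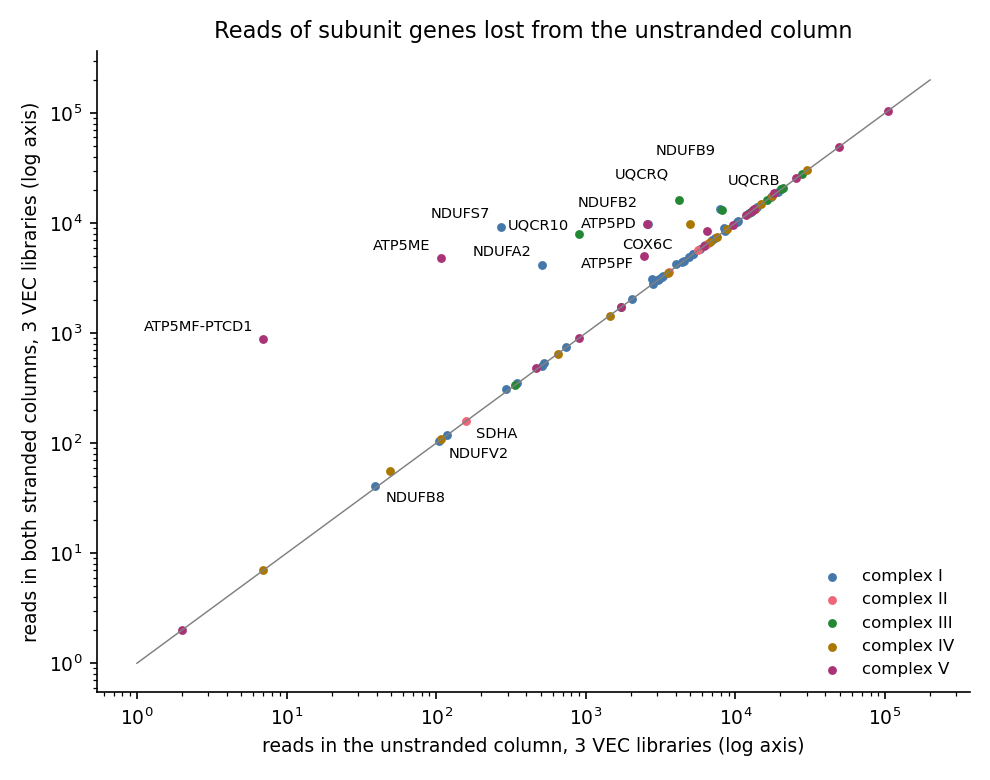
Reads of each member with at least 1 read, summed over the 3 VEC libraries, in the unstranded column against the sum of both stranded columns (log axes), with a grey line where they are equal. ATP5ME, NDUFS7, UQCR10 and NDUFA2 lie furthest above the line among members with at least 50 reads.

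Other genes of the pathway were counted in the same way. These lists were chosen with earlier results of these data known, and their counts stand beside 10.2% of genes higher and 8.88% lower without CDK12KO2. Of the 13 subunits encoded by mitochondrial DNA, 0 rose and 3 fell without CDK12KO2 (median log2 fold change −0.15). This median changes sign with 1 library: with all 6 it was 0.15, with 7 of 13 above 0 and 1 called lower. The median of the list against the VEC mean was 0.59 in CDK12KO2, −0.10 in both CDK12KO1 and CDK12KO3, and −0.09, 0.23 and −0.13 in VEC1 to VEC3. MT-ND4L, a membrane subunit of complex I, was at 194, 238 and 203 CPM in VEC1 to VEC3 and at 98.8, 75.1 and 98.5 CPM in CDK12KO1 to CDK12KO3 (log2 −1.11 ± 0.08 without CDK12KO2, edgeR adjusted p = 1.72e-08). It fell with all 6 libraries too (log2 −1.22 ± 0.16, edgeR adjusted p = 0.0316), and its groups are far apart. MT-ND5 was at 2414, 3299 and 2712 CPM against 1743, 2093 and 1774 CPM (log2 −0.68 ± 0.09 without CDK12KO2, edgeR adjusted p = 6.4e-05). The mitochondrial genes lie next to or over each other, so reads at their borders are not counted for either.

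**Figure D5:**
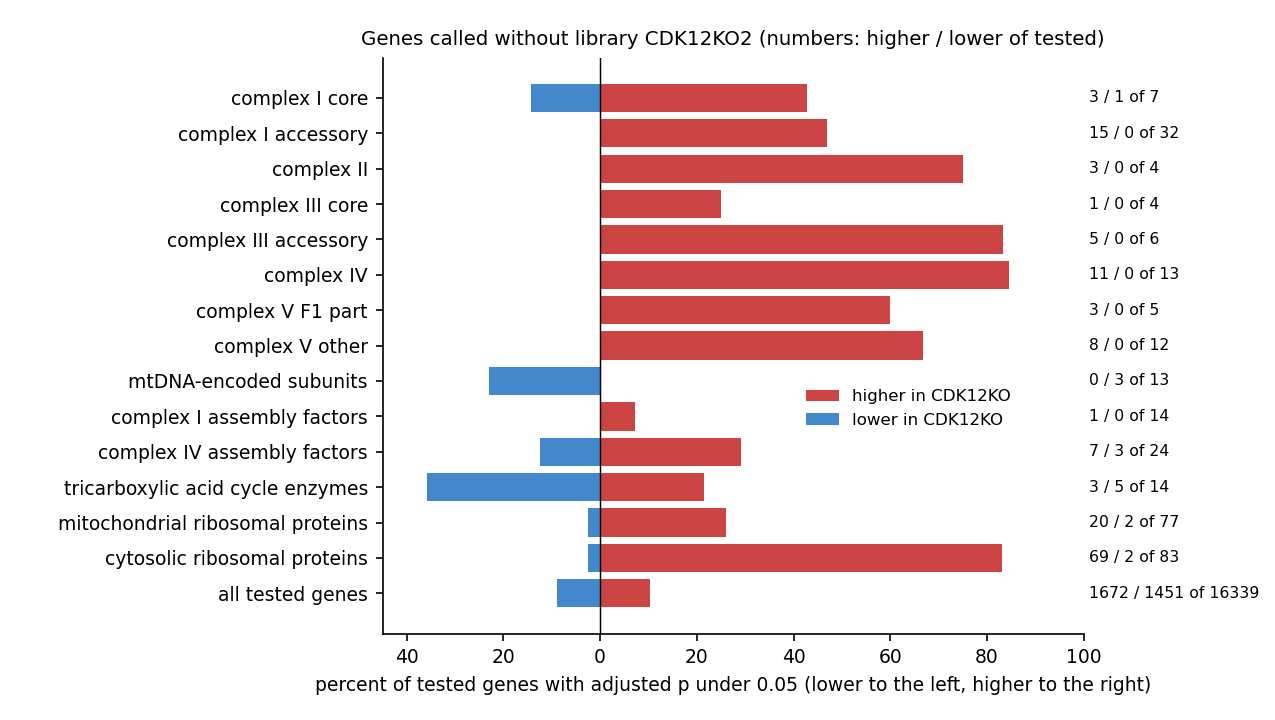
Percent of tested genes called higher (red, right) or lower (blue, left) without CDK12KO2 by edgeR's test, for subunit groups, other lists and all genes, with the numbers at the right. Complex IV (11 of 13), complex III accessory (5 of 6) and cytosolic ribosomal proteins (69 of 83) have the highest shares, where all genes have 10.2% higher and 8.88% lower.

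Assembly factors, which help build the complexes but are not part of them, had calls in both directions. For complex I, 1 of 14 rose, NDUFAF3 (log2 0.23 ± 0.07 without CDK12KO2, edgeR adjusted p = 0.0252), a call that was lost with the length and GC correction (0.08, edgeR adjusted p = 0.465), while NDUFAF8 had 0.20 ± 0.07 (edgeR adjusted p = 0.0527). For complex II none of 4 and for complex V none of 5 passed edgeR's test, with 2 and 0 at an unadjusted p under 0.05. For complex III, UQCC2 rose (0.28 ± 0.08, edgeR adjusted p = 0.0149) and TTC19 fell (−0.35 ± 0.08, edgeR adjusted p = 0.0037) among 6. UQCC2 lost its call with the length and GC correction (0.17, edgeR adjusted p = 0.0873), and both UQCC2 and TTC19 lost theirs without CDK12KO1 or CDK12KO3 (edgeR adjusted p from 0.0585 to 0.171). For complex IV, 7 of 24 rose and 3 fell. HIGD1A stood at 36.9, 37.5 and 38.7 CPM in VEC1 to VEC3 and 60.5, 75.4 and 55.5 CPM in CDK12KO1 to CDK12KO3 (log2 0.62 ± 0.09, edgeR adjusted p = 5.34e-05), and HIGD2A at 53.5, 55.8 and 55.4 CPM against 83.3, 274 and 82.7 CPM (0.59 ± 0.07, edgeR adjusted p = 1.79e-05). All 3 knockout libraries are above the VEC range in both of these small membrane proteins. Of 6 mobile carriers and electron donors, 1 fell, GPD2, the mitochondrial glycerol-3-phosphate dehydrogenase (−0.47 ± 0.09, edgeR adjusted p = 0.0013).

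Genes known to drive transcription of respiratory genes were mostly without a call: of 13, 0 rose and 1, PPRC1, fell (−0.24 ± 0.07 without CDK12KO2, edgeR adjusted p = 0.029), and without VEC1, VEC3, CDK12KO1 or CDK12KO3 this call was lost (edgeR adjusted p from 0.0871 to 0.238). NRF1 was at 17.3, 19.9 and 17.9 CPM in VEC1 to VEC3 and 19.7, 23.3 and 18.2 CPM in CDK12KO1 to CDK12KO3 (0.04 ± 0.12, edgeR adjusted p = 0.846). GABPA had −0.18 ± 0.13 (edgeR adjusted p = 0.381), ESRRA 0.13 ± 0.06 (edgeR adjusted p = 0.172), TFAM −0.03 ± 0.09 (edgeR adjusted p = 0.844) and TFB2M −0.19 ± 0.10 (edgeR adjusted p = 0.17). PPARGC1A was barely read, at 30, 22 and 34 reads against 20, 29 and 18. Of 14 tricarboxylic acid cycle enzymes other than complex II, 3 rose, with MDH2 (0.37 ± 0.06, edgeR adjusted p = 0.000387) and FH (0.26 ± 0.06, edgeR adjusted p = 0.00669) among them, and 5 fell. FH lost its call without CDK12KO1 (0.20, edgeR adjusted p = 0.213). Ribosomal proteins are also short and abundant: of 83 tested in the cytosolic ribosome 69 rose and 2 fell (median 0.35), and of 77 in the mitochondrial ribosome 20 rose and 2 fell (0.13). RPS27A (0.56, edgeR adjusted p = 4.73e-06), RPS28 (0.52, edgeR adjusted p = 1.02e-05), MRPL55 (0.51, edgeR adjusted p = 4.3e-05) and MRPS21 (0.41, edgeR adjusted p = 0.000148) had the smallest p of these lists. With all 6 libraries edgeR called no gene of the assembly, carrier, regulator, tricarboxylic acid cycle and ribosomal lists. At an unadjusted p under 0.05 there were then 3 assembly factors of complex I, 1 of II, 3 of III, 11 of IV and 0 of V, with medians of 0.20, 0.47, 0.08, 0.43 and 0.23. For the carriers there was 1 (median 0.02), for the regulators 0 (−0.18), for the tricarboxylic acid cycle 4 (−0.04), for the cytosolic ribosome 51 (0.94) and for the mitochondrial ribosome 22 of 76 (0.34).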

How the data were processed

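RNA of 6 C4-2 libraries was extracted with an RNeasy kit and prepared with a SMARTer kit, per the labels' protocols. FastQC, STAR and GRCh38 are named per the submitters' processing notes. Tool versions and the annotation release were not given in the sources used here. The deposited values are the authors' raw gene counts, with 1 unstranded and 2 stranded columns. The unstranded column was used, and summary entries (unmapped, multimapping, outside genes, ambiguous) were left out of library sizes. Ambiguous reads were 11.1–14.4% of all reads.

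Counts were fitted with edgeR 4.0.16 under R 4.3.3 (TMM, filterByExpr, robust quasi-likelihood test, no block), over all genes, on 6 libraries (15783 genes) and on 5 without CDK12KO2 (16339 genes), adjusted by Benjamini-Hochberg at 0.05. Alternatives were limma-voom (limma 3.58.1) and DESeq2 1.42.0, other factors and filters, a length and GC correction (splines with 5 degrees of freedom), a replicate block, a threshold of 0.01 and leaving out each library. The sum of the stranded columns was added after the data were seen. CPM used TMM factors from all 6 libraries and log2 CPM a prior count of 2. SE is the log2 fold change divided by the square root of F. The test was checked on simulated data. Names came from an identifier table (62672 of 62696 matched). Coordinates, biotypes, exon overlaps and principal transcripts (best APPRIS rank, then the shortest paired with RefSeq) came from GENCODE 29. That release held 58269 of the 62696 gene entries, so the counts used another annotation, and its overlaps and lengths may differ. Promoters came from RefSeq.

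Not every gene of the lists is reported here by name. The members and lists were chosen with earlier results of these data known. Named members are all SDH genes, the 4 with the smallest p without CDK12KO2 and the 2 highest per length in each complex, those called lower or called with all 6 libraries, and paralog sets; of each other list up to 2 with the smallest p, and 5 regulators. Only members with enough reads were tested: 83 in both fits, while NDUFC2-KCTD14, COX4I2, COX6A2, COX6B2, COX8C, ATP5MF-PTCD1 and ATP5MGL were not. No 2 files agreed within sampling noise (chi-square per degree of freedom of 3.27 or more).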

Additional observations from a re-analysis of the deposited data

How the results depend on the processing

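The fit of all 6 libraries called 0 members under each alternative except 1 without a filter on low counts, 12 with DESeq2 and 50 without CDK12KO2 (leaving out each library gave 0 to 50). Leaving out each library moved its medians between 0.25 and 0.91 in complex I, 0.22 and 0.33 in II, 0.39 and 0.97 in III, 0.46 and 1.22 in IV, and 0.37 and 1.44 in V, in each case lowest without CDK12KO2. Without CDK12KO2, the 50 called members ranged from 35 to 62 over the other settings and from 23 (without CDK12KO3) to 59 (without VEC2) when 1 more library was left out; 21 members were called under all 14 alternatives that keep the 0.05 threshold. Medians by complex then ran from 0.22 to 0.26 in II and 0.30 to 0.43 in V. The length and GC correction moved them to 0.18 in I, 0.21 in II, 0.38 in IV and 0.31 in V. Complex II, with 4 genes, came to 0.20 with total counts as the scale and 0.21 in the stranded sum, and to 0.12 with total counts and all 6 libraries, a scale that moved the median of all genes to −0.18 and that of the members to 0.58. The share of all genes called without CDK12KO2 moved as well. It was 19.1% in the main fit, 13.5% without VEC1, 29.3% without VEC2 and 33.9% with the replicate block. The share of tested members was 60.2%, 50.6%, 71.1% and 74.7% in the same order, so it rose and fell with that of all genes. In some other settings it did not. The length and GC correction called 50.6% of members and 19.2% of all genes. DESeq2 called 59.3% and 7.39%, and edgeR without the filter on low counts 61.6% and 9.84%. Both of these took their share over 31935 genes in place of 16339, so their shares of all genes cannot be set against the 19.1%. The cause of these moves was not tested. With the union of exons as length, the VEC levels per length moved to 2602 for ATP5F1B, 833 for UQCRH, 621 for NDUFB4, 363 for COX4I1 and 133 for SDHB.

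Replicate numbers are shared between groups, but deviations of same-numbered libraries correlated at 0.135, 0.194 and 0.084 across genes, so they were not taken as pairs, though each library correlated best with its own number. With a replicate block, 0 members were called with all 6 libraries (5 genes in all, against 94) and 61 higher and 1 lower without CDK12KO2, which leaves VEC2 unpaired (5540 genes against 3123). Without CDK12KO2 the smallest difference called in a member was 0.19 (ATP5F1C), and members with few reads, such as NDUFB8 with an SE of 0.54, are the least precise.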
